A study of Homo sapiens with 2 samples.

Results

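The 31 genes described here make cholesterol, move it inside the cell, export it or control these steps. They were taken by symbol from the deposited gene table, where all 31 were found once each among 46732 listed genes. RNA came from secondary mammospheres, floating cell clusters grown without attachment, of T47D, a human breast cancer cell line of luminal type that carries the estrogen receptor. There were 2 libraries, 1 labelled CIC knockdown and 1 control, and both came from cells kept 7 days as primary spheres and 7 further days after passage. CIC is a transcriptional repressor that loses its hold on DNA when ERK is active. The sources used here do not give how CIC was knocked down, or whether the cells were 1 clone or a pool. Duplicates are mentioned in the design text, yet each group has 1 sample and 1 column, so the spread between cultures was not measured and no difference could be tested.

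The enzymes of the pathway build squalene from acetyl-CoA by way of mevalonate, close it into lanosterol and trim lanosterol to cholesterol. Their genes are switched on by the SREBP transcription factors, which the sensor SCAP carries to the Golgi when sterols in the endoplasmic reticulum are low and which the INSIG proteins hold back when sterols are high. LXR, a pair of nuclear receptors that bind oxysterols, acts the other way and drives export through ABCA1 and ABCG1 and loss of lipoprotein receptors through MYLIP. SREBF1 is itself an LXR target.

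The library labelled CIC knockdown held 68420805 counts and the control library 47099221, a depth ratio of 1.45. CIC mRNA was not lower where the label says knockdown: it had 872 counts in the library labelled CIC knockdown and 607 in the control library, a ratio of 0.980 (95% counting interval 0.882 to 1.09). The CIC targets ETV4 and ETV5 stood at ratios of 4.62 (3.71 to 6.0) and 4.93 (4.24 to 5.86). The cells are therefore named by their labels, and each ratio is between the labels. All 10 luminal epithelial markers had at least 100 counts in both libraries, with log2 ratios from -0.62 (MUC1) to 1.05 (PGR) and a median of -0.01. The basal keratin genes KRT5 and KRT14, the leukocyte gene PTPRC and the hepatocyte gene ALB had 0 counts in both libraries. Other genes of those lists did have counts, given here with the library labelled CIC knockdown first and control second. The basal genes OXTR (1716 and 1502, ratio 0.779) and MYLK (149 and 63, ratio 1.60) went opposite ways. The leukocyte gene CD68 had 146 and 89 counts, a ratio of 1.12 whose interval held 1. The hepatocyte gene SERPINA1 had 1038 and 952 counts, a ratio of 0.744. Of 8 fibroblast genes, COL1A2, PDGFRA, PDGFRB and FAP had 0 counts in both libraries, COL3A1 had 8415 counts in the library labelled CIC knockdown and 2384 in the control library, and LUM went the other way, with 432 counts in the library labelled CIC knockdown and 550 in the control library. The summed counts of the 8 fibroblast genes were 9037 in the library labelled CIC knockdown and 3007 in the control library, most of it COL3A1, and their part in the ratios of the cholesterol genes was not tested. In the library labelled CIC knockdown the other marker lists summed to 2052 counts for 8 basal genes, 176 for 8 leukocyte genes, 75 for 6 endothelial genes, 210 for 6 adipocyte genes and 1070 for 6 hepatocyte genes. In the control library they summed to 1737 counts for the basal, 105 for the leukocyte, 30 for the endothelial, 166 for the adipocyte and 996 for the hepatocyte genes. In bulk RNA, fewer cells of a type and less RNA per cell cannot be told apart.

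Promoters of 27 of the 31 genes were found in a RefSeq table (GRCh38.p14), each from 250 bases before to 50 bases after the transcription start. SQLE, FDFT1, ABCG1 and ACAT2 had no entry. A gene with more than 1 window, such as IDI1 or HMGCS1, was counted once, as carrying a motif if any of its windows held it. The 9 promoters printed here show windows with and without the boxes among genes of different roles and ratios: the higher synthesis enzymes HMGCS1, FDPS and CYP51A1, the SREBP regulators SREBF2 and INSIG1, the lower enzyme PMVK, the lower factor SREBF1, the exporter ABCA1 and the ubiquitin ligase MYLIP. They were picked after their values were seen. Capitals mark the SREBP site TCACNCCAC and the NF-Y box CCAAT on either strand, so that ATTGG is a CCAAT on the other strand.
HMGCS1 (chr5:43313363-43313662, minus strand): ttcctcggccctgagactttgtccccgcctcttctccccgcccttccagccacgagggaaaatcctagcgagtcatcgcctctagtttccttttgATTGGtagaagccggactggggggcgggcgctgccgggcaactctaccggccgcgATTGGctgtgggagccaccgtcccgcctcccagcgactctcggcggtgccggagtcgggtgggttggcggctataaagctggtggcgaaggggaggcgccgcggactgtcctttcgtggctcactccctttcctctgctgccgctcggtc
FDPS (chr1:155308616-155308915, plus strand): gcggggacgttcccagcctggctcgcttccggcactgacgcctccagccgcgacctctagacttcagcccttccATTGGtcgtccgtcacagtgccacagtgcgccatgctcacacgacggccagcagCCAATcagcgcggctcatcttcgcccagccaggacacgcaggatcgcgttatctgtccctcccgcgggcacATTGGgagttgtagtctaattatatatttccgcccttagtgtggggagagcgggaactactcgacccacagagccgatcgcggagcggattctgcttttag
CYP51A1 (chr7:92134428-92134727, minus strand): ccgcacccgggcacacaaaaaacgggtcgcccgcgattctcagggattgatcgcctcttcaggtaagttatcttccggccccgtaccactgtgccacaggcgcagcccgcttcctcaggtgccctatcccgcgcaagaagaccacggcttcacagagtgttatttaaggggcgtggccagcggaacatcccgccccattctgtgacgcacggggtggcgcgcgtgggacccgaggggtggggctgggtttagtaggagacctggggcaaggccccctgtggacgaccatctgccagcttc
SREBF2 (chr22:41832855-41833154, plus strand): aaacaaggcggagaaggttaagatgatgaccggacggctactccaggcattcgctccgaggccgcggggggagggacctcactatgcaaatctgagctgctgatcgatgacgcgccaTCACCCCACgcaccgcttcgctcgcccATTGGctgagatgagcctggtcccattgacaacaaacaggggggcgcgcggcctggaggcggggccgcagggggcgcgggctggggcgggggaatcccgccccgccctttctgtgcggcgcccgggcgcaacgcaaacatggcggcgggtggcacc
INSIG1 (chr7:155297628-155297927, plus strand): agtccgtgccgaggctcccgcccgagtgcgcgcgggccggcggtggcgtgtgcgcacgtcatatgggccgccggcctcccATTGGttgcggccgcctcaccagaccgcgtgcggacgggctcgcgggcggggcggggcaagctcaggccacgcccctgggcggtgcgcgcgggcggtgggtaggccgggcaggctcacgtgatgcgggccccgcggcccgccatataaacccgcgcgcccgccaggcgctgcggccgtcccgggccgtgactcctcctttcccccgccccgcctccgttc
PMVK (chr1:154936670-154936969, minus strand): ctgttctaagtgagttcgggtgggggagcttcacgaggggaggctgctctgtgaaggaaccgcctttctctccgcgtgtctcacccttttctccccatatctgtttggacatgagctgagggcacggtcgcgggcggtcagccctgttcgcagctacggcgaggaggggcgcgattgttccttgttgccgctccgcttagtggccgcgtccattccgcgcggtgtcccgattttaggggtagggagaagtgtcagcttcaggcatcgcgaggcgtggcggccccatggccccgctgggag
SREBF1 (chr17:17836937-17837236, minus strand): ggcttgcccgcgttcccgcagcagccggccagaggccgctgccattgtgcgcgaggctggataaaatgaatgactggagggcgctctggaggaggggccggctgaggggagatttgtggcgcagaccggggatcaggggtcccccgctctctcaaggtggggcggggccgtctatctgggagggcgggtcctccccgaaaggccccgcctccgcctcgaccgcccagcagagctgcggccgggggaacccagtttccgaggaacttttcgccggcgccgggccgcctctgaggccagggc
ABCA1 (chr9:104928106-104928405, minus strand): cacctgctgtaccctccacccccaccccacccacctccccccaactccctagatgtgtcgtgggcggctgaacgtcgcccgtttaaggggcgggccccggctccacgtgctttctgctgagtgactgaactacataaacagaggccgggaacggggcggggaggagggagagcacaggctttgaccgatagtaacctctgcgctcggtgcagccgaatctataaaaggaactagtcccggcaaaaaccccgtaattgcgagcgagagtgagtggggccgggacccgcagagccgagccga
MYLIP (chr6:16128836-16129135, plus strand): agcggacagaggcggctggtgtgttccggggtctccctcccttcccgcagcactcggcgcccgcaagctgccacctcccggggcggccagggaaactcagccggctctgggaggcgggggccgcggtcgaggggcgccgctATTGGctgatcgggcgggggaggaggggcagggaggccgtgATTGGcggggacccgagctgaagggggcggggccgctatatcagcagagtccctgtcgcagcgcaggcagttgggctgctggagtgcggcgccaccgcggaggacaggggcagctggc

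The SREBP site TCACNCCAC, searched on both strands, lay in 1 of the 27 promoters, that of SREBF2, where it begins 133 bases before the start. It was found in 1.39% of all 27305 genes with a promoter in the table. Only this rare pattern was searched, so a window without it, such as that of FDPS, is not shown to lack an SREBP site. CCAAT lay in 19 of the 27 (70.4%), against 39.7% of all genes with a promoter and 43.4% of the 10602 genes that had at least 100 counts and a promoter. In the printed windows HMGCS1 carried 2 such boxes, at -155 and -100 from the start, and FDPS carried 3, while PMVK, SREBF1 and ABCA1 carried none. The boxes did not follow the ratios gene by gene: CYP51A1, which was higher, carried none, and MYLIP, which was lower, carried 2, at -109 and -68. Among genes whose mRNA was higher by the counting interval described next, CCAAT lay in 15 of 19 promoters, and among the others in 4 of 8. The Sp1 box GGGCGG lay in 92.6% of the members' promoters, against 76.9% of those of the genes with at least 100 counts. CACGTG, an E-box, lay in 5 promoters (18.5%, against 12.6%), those of LSS, SC5D, SCAP, INSIG1 and ABCA1. Neither CIC motif, TGAATGAA (1.73% of the genes with at least 100 counts) or TGAATGGA (0.764%), was found in any window of the 27 genes. The LXR element DR4 was searched only as a perfect direct repeat spaced by any 4 bases (0.00943%). This exact pattern was not found in those windows either. Imperfect repeats were not searched. A window without the exact pattern, such as that of ABCA1, is therefore not shown to lack an LXR element. These matches are letters in short windows, read on both strands, and no motif overlapped another in the printed capitals.

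Of the 19 genes that make cholesterol, 18 had higher normalised counts in the library labelled CIC knockdown, each by less than 2-fold, while the exporter ABCG1 was lower and the exporter ABCA1 had an interval that held 1. MYLIP, the brake on uptake, was lower here and higher by interval in the table that adds assembled transcripts. A ratio is the TMM-normalised count in the library labelled CIC knockdown over that in the control library, with a prior count of 2, and its interval is the exact Clopper-Pearson 95% interval, which covers counting error only. All 31 genes had at least 100 counts. By interval, 22 of the 31 (71.0%) were higher, against 33.8% of all 13722 genes with at least 100 counts in 1 library, and 4 (12.9%) were lower, against 27.3%. The median log2 ratio was 0.18, against 0.02 over all genes tested. By at least 25%, 7 were higher (HMGCS1, ACAT2, NSDHL, LBR, SQLE, FDPS and MVK, of which MVK fell short of 25% in TPM and FPKM; background 12.3%), and by at least 20%, 1 was lower (ABCG1; background 9.54%). None reached 2-fold in either direction (backgrounds 1.17% and 0.962%). Because deep counts give narrow intervals, the shares were also taken over the 8957 genes with at least 899 counts in 1 library, the count of the member with the fewest; 38.1% of these were higher by interval, 29.4% were lower, 8.27% were higher by at least 25% and 5.81% were lower by at least 20%. At 2-fold, 0.525% of them were higher and 0.458% lower.

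**Figure D1:**
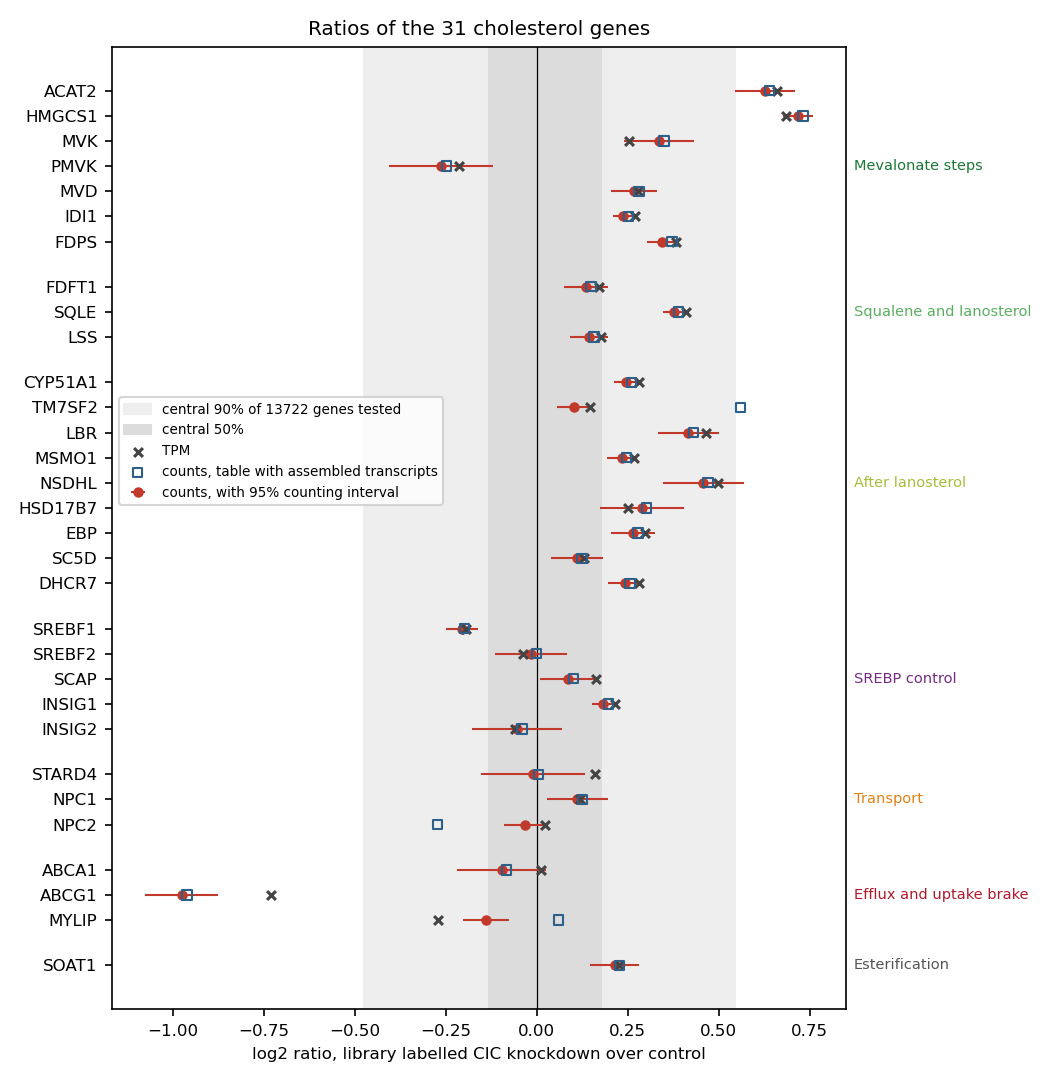
Log2 ratio of the library labelled CIC knockdown over control (horizontal axis) for each of the 31 genes (rows, grouped by role). Red points are counts with their 95% counting intervals, crosses are the authors' TPM, squares are counts from the table that adds assembled transcripts, and grey bands hold the central 90% and 50% of the 13722 genes tested. HMGCS1 (0.72) and ACAT2 (0.63) lie furthest right and ABCG1 (-0.98) furthest left, and the square stands apart from the red point for TM7SF2, NPC2 and MYLIP.

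On the TPM scale, which is per length and so allows levels of different genes to be compared, the 19 synthesis enzymes summed to 1129 TPM in the library labelled CIC knockdown and 907.8 TPM in the control library, a ratio of 1.24. The other 12 genes summed to 309.5 TPM in the library labelled CIC knockdown and 303.7 TPM in the control library, a ratio of 1.02. FDPS, IDI1, SQLE and INSIG1 were the most abundant of the 31 in both libraries, each above 100 TPM. ABCA1 was the least abundant, at 1.94 TPM in the library labelled CIC knockdown and 1.92 TPM in the control library.

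**Figure D2:**
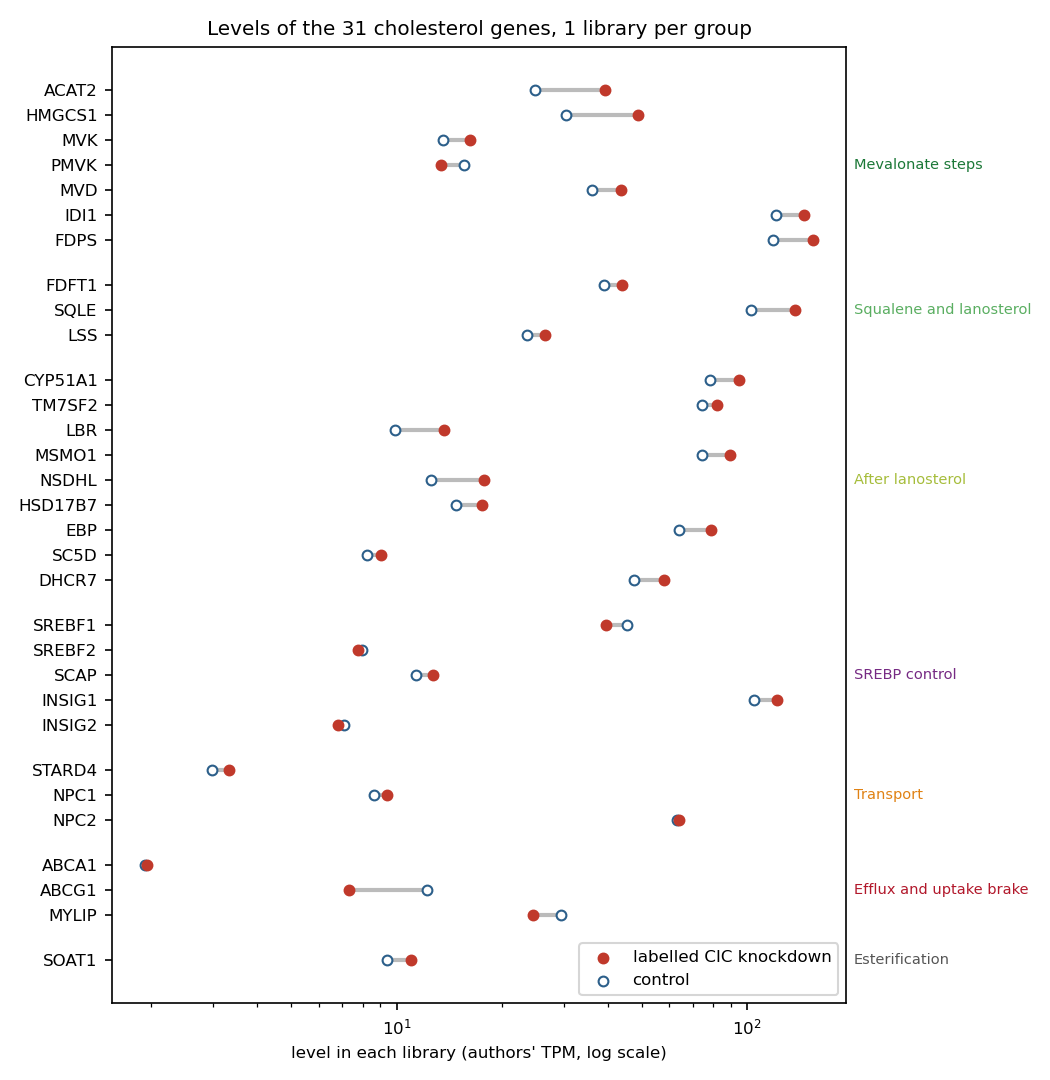
The authors' TPM (horizontal log axis) of the 31 genes in the library labelled CIC knockdown (filled) and the control library (open), 1 library each, in rows grouped by role. Filled points lie right of open ones for 18 of the 19 synthesis enzymes, and the levels span from 1.94 TPM for ABCA1 to 153.9 TPM for FDPS in the library labelled CIC knockdown.

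The mevalonate steps held the largest positive ratios. Of the 7 genes, 6 were higher and 1 lower by interval, against 33.8% and 27.3% of all genes tested. Their median log2 ratio was 0.34. HMGCS1 (gene 3157, GRCh38 chromosome 5, 43287470 to 43313477), which makes HMG-CoA, had 48.8 TPM in the library labelled CIC knockdown and 30.4 TPM in the control library, from 16178 counts in the library labelled CIC knockdown and 6708 in the control library. Its ratio of 1.64 (1.60 to 1.69) lay above that of 97.4% of all genes tested. ACAT2 (chromosome 6, 159762045 to 159779112), the cytosolic thiolase that feeds HMGCS1 with acetoacetyl-CoA, had 3957 counts in the library labelled CIC knockdown and 1748 in the control library, a ratio of 1.54 (1.46 to 1.63). The first 2 enzymes of the route had the 2 highest ratios of all 31 genes.

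Further along, mevalonate kinase (MVK) stood at a ratio of 1.26 (1.18 to 1.35) with 2521 counts in the library labelled CIC knockdown and 1362 in the control library. Its log2 ratio of 0.34 in counts was 0.25 in TPM and 0.24 in FPKM. PMVK (chromosome 1, 154924740 to 154942658), the kinase of the next step, went the other way, with 899 counts in the library labelled CIC knockdown and 736 in the control library, a ratio of 0.833 (0.755 to 0.920). It was the 1 synthesis enzyme whose ratio lay below 1, and it had the fewest counts of the 19 in the library labelled CIC knockdown. MVD, the decarboxylase that makes isopentenyl diphosphate, stood at 1.20 (1.15 to 1.26), and IDI1, which isomerises it, at 1.18 (1.16 to 1.20). MVD had 5663 counts in the library labelled CIC knockdown and 3210 in the control library. IDI1 had 29303 counts in the library labelled CIC knockdown and 16955 in the control library, more than any other of the 31 genes. For FDPS, the farnesyl diphosphate synthase, 153.9 TPM were found in the library labelled CIC knockdown and 118.1 TPM in the control library, a count ratio of 1.27 (1.23 to 1.31). An assembled FDPS splice variant of 10 exons stood at 1.34 (1.28 to 1.41), with 4612 counts in the library labelled CIC knockdown and 2365 in the control library.

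The 3 steps to lanosterol were all higher by interval, against 33.8% of all genes tested, with a median log2 ratio of 0.14. Squalene epoxidase (SQLE), a rate-limiting oxygenase, had 26440 counts in the library labelled CIC knockdown and 13895 in the control library, a ratio of 1.30 (1.27 to 1.32). The squalene synthase FDFT1 before it stood at 1.10 (1.05 to 1.14) and the lanosterol synthase LSS after it at 1.10 (1.07 to 1.14). FDFT1 had 5998 counts in the library labelled CIC knockdown and 3725 in the control library. LSS had 7949 counts in the library labelled CIC knockdown and 4910 in the control library. The interval of SQLE did not overlap those of its neighbours in the pathway.

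All 9 enzymes that act after lanosterol were higher by interval, with a median log2 ratio of 0.25. The share higher was 33.8% of all genes tested and 38.1% of those with at least 899 counts in 1 library. NSDHL, which removes the C4 carboxyl group, had the highest ratio among them, 1.37 (1.27 to 1.48), with 1967 counts in the library labelled CIC knockdown and 977 in the control library. It works in a complex with the oxidase MSMO1, at 1.18 (1.14 to 1.21), and the ketoreductase HSD17B7, at 1.22 (1.13 to 1.32). The demethylase CYP51A1 (1.19, 1.16 to 1.21), the isomerase EBP (1.20, lower bound 1.15) and DHCR7, which performs a final reduction (1.18, 1.15 to 1.22), lay close together, and the desaturase SC5D lay nearer to 1, at 1.08 (1.03 to 1.13). CYP51A1 had 94.9 TPM in the library labelled CIC knockdown and 78.1 TPM in the control library. MSMO1 was close behind it with 89.6 TPM in the library labelled CIC knockdown and 74.4 TPM in the control library. EBP had 78.9 TPM in the library labelled CIC knockdown and 64.1 TPM in the control library. These 3 enzymes were among the more abundant of the late pathway, while HSD17B7 was scarcer, with 17.6 TPM in the library labelled CIC knockdown and 14.7 TPM in the control library. DHCR7 had 57.7 TPM in the library labelled CIC knockdown and 47.4 TPM in the control library. SC5D was the least abundant synthesis enzyme in both libraries, with 9.01 TPM in the library labelled CIC knockdown and 8.22 TPM in the control library. The near-identical pseudogene HSD17B7P2 had 559 counts in the library labelled CIC knockdown and 481 in the control library, so the division of reads with HSD17B7 is uncertain.

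TM7SF2 and LBR both encode sterol C14-reductases, LBR being also a protein of the inner nuclear membrane that binds lamin B. TM7SF2 was the more abundant, at 82.2 TPM in the library labelled CIC knockdown and 74.2 TPM in the control library, and LBR had 13.7 TPM in the library labelled CIC knockdown and 9.87 TPM in the control library. The ratio was 1.33 (1.26 to 1.42) for LBR and 1.07 (1.04 to 1.11) for TM7SF2. TM7SF2 thus stood at 6.01 times the TPM of LBR in the library labelled CIC knockdown and at 7.51 times in the control library. In the table that adds assembled transcripts, however, TM7SF2 had 6817 counts in the library labelled CIC knockdown and 3185 in the control library, a ratio of 1.47 (1.41 to 1.54). VPS51, whose locus overlaps, held more counts there: 9088 in place of 6058 in the library labelled CIC knockdown and 7717 in place of 4444 in the control library. The size of the TM7SF2 ratio depended on the table, and its direction did not.

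Genes that control SREBP went both ways. INSIG1, a retention protein that is itself a target of SREBP, had 121.2 TPM in the library labelled CIC knockdown and 104.4 TPM in the control library, a count ratio of 1.13 (1.11 to 1.16). INSIG2, its less abundant relative, had 6.80 TPM in the library labelled CIC knockdown and 7.09 TPM in the control library, with a ratio of 0.963 whose interval held 1 (0.884 to 1.05). INSIG1 stood at 17.8 times the TPM of INSIG2 in the library labelled CIC knockdown and at 14.7 times in the control library. SCAP, the escort of SREBP, stood at 1.06 (1.01 to 1.12), with 3402 counts in the library labelled CIC knockdown and 2184 in the control library. Its interval held 1 when counts were halved, as would apply if both mates of a pair had been counted.

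SREBF2, which encodes the SREBP-2 that mainly drives cholesterol genes, was at the same level within counting error, with 2063 counts in the library labelled CIC knockdown and 1422 in the control library, a ratio of 0.989 (0.924 to 1.06). SREBF1, which encodes the SREBP-1 forms that mainly drive fatty acid genes, was lower at 0.867 (0.842 to 0.894), with 39.6 TPM in the library labelled CIC knockdown and 45.4 TPM in the control library. Its transcripts did not share 1 direction. The 6 listed transcripts from the upstream start (chromosome 17, 17836986 to 17837017) had 1979 counts in the library labelled CIC knockdown and 1638 in the control library, a ratio of 0.824 (0.771 to 0.880). The transcript that starts at 17823630 (transcript variant 3) went the other way, with 1518 counts in the library labelled CIC knockdown and 854 in the control library, a ratio of 1.21 (1.11 to 1.32). Predicted transcripts that begin further inside the gene, at 17819723 and 17818374, took 46.8% and 17.9% of the SREBF1 counts in the library labelled CIC knockdown and 47.9% and 20.2% in the control library. An assembled 18-exon variant with the upstream start had 2323 counts in the library labelled CIC knockdown and 2463 in the control library, a ratio of 0.650 (0.614 to 0.688).

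Transport genes lay near equal levels. NPC1, the lysosomal membrane protein that passes cholesterol on, stood at 1.08 (1.02 to 1.15), an interval that held 1 with halved counts. It had 2998 counts in the library labelled CIC knockdown and 1892 in the control library. NPC2, its soluble partner in the lysosome, had 64.0 TPM in the library labelled CIC knockdown and 63.0 TPM in the control library, and its ratio of 0.977 (0.940 to 1.02) held 1. In the table with assembled transcripts NPC2 stood at 0.828 (0.794 to 0.863), and the locus of the microRNA gene MIR4709 inside it held 1746 counts in place of 256 in the library labelled CIC knockdown and 1352 in place of 220 in the control library. STARD4, a cytosolic sterol carrier, had 993 counts in the library labelled CIC knockdown and 682 in the control library, a ratio of 0.993 (0.900 to 1.10). SOAT1, which esterifies cholesterol for storage, was higher, at 1.16 (1.11 to 1.22), with 4840 counts in the library labelled CIC knockdown and 2846 in the control library.

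Of the 3 genes of efflux and of the brake on uptake, none was higher and 2 were lower by interval. Of all genes tested, 33.8% were higher and 27.3% lower. ABCG1 (gene 9619, chromosome 21, 42199689 to 42304387), which exports sterol to high-density lipoprotein, had 1447 counts in the library labelled CIC knockdown and 1942 in the control library although the control library was the shallower. Its ratio of 0.509 (0.474 to 0.544) was the lowest of the 31 and lay below all but 1.06% of the genes tested. In TPM, 7.31 were found in the library labelled CIC knockdown and 12.2 in the control library, a ratio of 0.599, so ABCG1 was lower on both scales. ABCA1, which exports cholesterol to lipid-poor apolipoproteins, stood at 0.935 (0.859 to 1.02), with 1275 counts in the library labelled CIC knockdown and 930 in the control library. MYLIP (chromosome 6, 16129086 to 16151015), also called IDOL, is a ubiquitin ligase that marks lipoprotein receptors for degradation; it had 4789 counts in the library labelled CIC knockdown and 3598 in the control library, a ratio of 0.908 (0.869 to 0.948). In the table with assembled transcripts MYLIP turned to 1.04 (1.00 to 1.09), so its direction is uncertain.

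The ABCG1 counts differed by start site. At 42219157, which carried 99.7% of the gene's counts in the library labelled CIC knockdown and 77.5% in the control library, 1443 counts were found in the library labelled CIC knockdown and 1505 in the control library, a ratio of 0.654 (0.608 to 0.703). The starts between 42219821 and 42219898 had 4 counts in the library labelled CIC knockdown and 436 in the control library, a ratio of 0.00994 (0.0017 to 0.0161). Of those 436, 316 belonged to a predicted transcript of 10238 bases. Both start sites were lower, and the downstream one by far more.

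Division of counts among transcripts moved over 20% of the counts in 13 of the 31 genes and under 5% in 9. The shares over all genes tested are not given here, so these counts are not read as particular to the 31. For ABCA1 the whole count moved: the standard transcript had 0 counts in the library labelled CIC knockdown (a floor of 3 counts allows up to 0.235% of the gene's counts) and 896 in the control library, while transcript variant X7 had 1203 counts in the library labelled CIC knockdown and 0 in the control library. MYLIP moved by 89.3%, its standard transcript taking 90.2% of counts in the library labelled CIC knockdown and 0.917% in the control library. SC5D moved by 37.9% between 2 transcripts of near-equal length (7019 and 6854 bases), the longer of which took 54.6% of counts in the library labelled CIC knockdown and 16.7% in the control library. INSIG2, whose total was level, moved by 46.3%. HMGCS1 moved by 21.3%, yet both of its start sites were higher: 1.66 (1.60 to 1.71) for the site at 43313412 to 43313477, with 13156 counts in the library labelled CIC knockdown and 5419 in the control library, and 1.60 (1.50 to 1.71) for that at 43313181. The counts were estimated by the authors' quantification, so a share per transcript is less certain than the gene's total, and the counting intervals leave that error out.

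**Figure D3:**
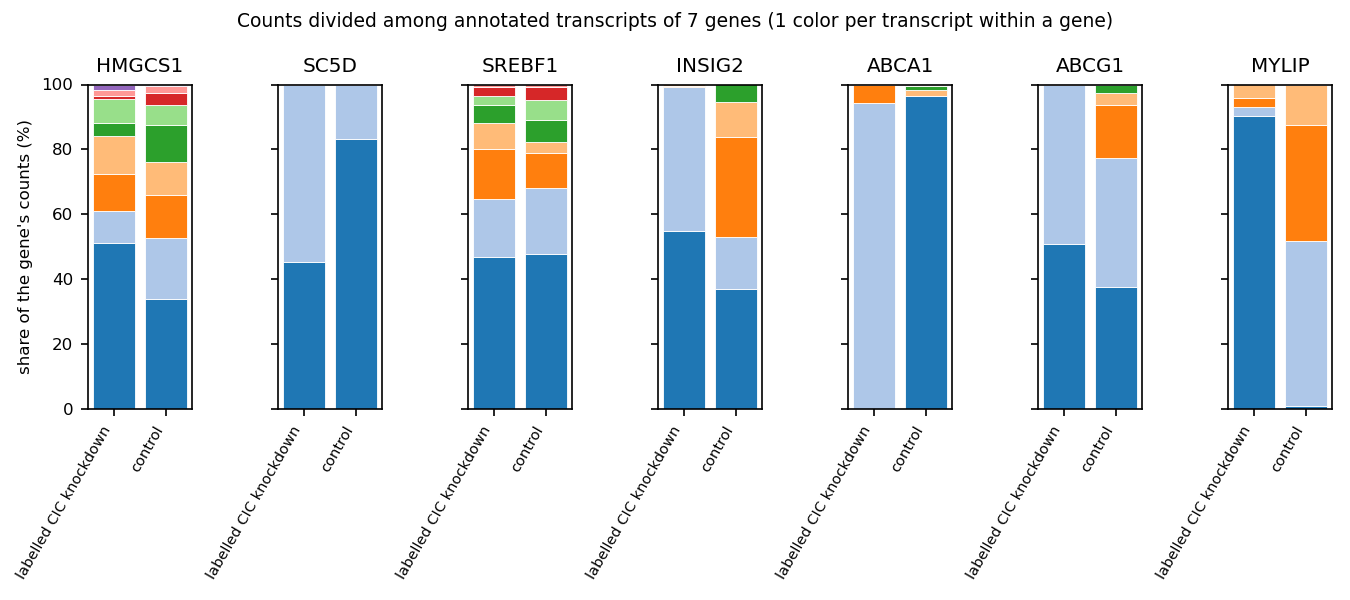
Share of each gene's counts (vertical axis, %) given to each annotated transcript in the library labelled CIC knockdown (left bar) and the control library (right bar) for 7 genes, 1 color per transcript within a gene. The colors change almost wholly for ABCA1 and MYLIP, and the SREBF1 bars differ little.

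For 7 genes, another gene with at least 10% of the member's counts overlaps the locus, and the sources used here do not say whether the authors' counting used strand, although the library kit keeps it. TCP1 overlaps ACAT2 and had 14852 counts in the library labelled CIC knockdown and 9929 in the control library, a log2 ratio of 0.03, against 0.63 for ACAT2. SOD2, which also overlaps ACAT2, stood at -0.14. MMAB, beside MVK, stood at 0.05, AKAP9 at CYP51A1 at -0.19, VPS51 at TM7SF2 at -0.11, RMC1 at NPC1 at 0.16, RAI1 at SREBF1 at 0.11 and WDR37 at IDI1 at -0.11. The ratios of these overlapped members are uncertain to the extent that reads were shared.

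Of 72 further genes of sterol and isoprenoid metabolism, 64 had at least 100 counts; 19 (29.7%) were higher and 18 (28.1%) lower by interval, with a median log2 ratio of 0.00, close to the shares over all genes tested. In the branches that use mevalonate for other isoprenoids, 6 of 15 were higher (40%) and 0 lower, against 33.8% and 27.3% of all genes tested. PDSS1, a subunit of the synthase that makes the coenzyme Q side chain, stood at a log2 ratio of 0.51 (793 counts in the library labelled CIC knockdown, 378 in the control library), COQ2 of the same route at 0.29, and RCE1, a protease for prenylated proteins, at 0.20 but at -1.06 in the table with assembled transcripts. GGPS1, FNTA and FNTB, named after their values were seen, had intervals that held 1.

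Lipoprotein receptors and their partners went both ways, with 3 of 11 higher (27.3%) and 4 lower (36.4%), against 33.8% and 27.3% of all genes tested. LRP8, a receptor for reelin, had 2511 counts in the library labelled CIC knockdown and 1055 in the control library, a ratio of 1.62 (1.51 to 1.75). LRP2, the large receptor megalin, had 134 counts in the library labelled CIC knockdown and 41 in the control library, a ratio of 2.18 (1.56 to 3.24), and SCARB2, a lysosomal membrane protein, stood at a log2 ratio of -0.25. Of 18 genes of transport and storage, 5 were higher (27.8%) and 6 lower (33.3%). CAV1, the caveolin that binds cholesterol at the plasma membrane, had 246 counts in the library labelled CIC knockdown and 316 in the control library, a ratio of 0.533 (0.448 to 0.629). NCEH1, which hydrolyses cholesteryl esters, had 818 counts in the library labelled CIC knockdown and 988 in the control library, a ratio of 0.565 (0.514 to 0.620), and the lipid transfer protein VPS13C stood at a log2 ratio of -0.28.

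Among 10 genes of LXR and oxysterol handling, 3 were higher (30%) and 4 lower (40%), against 33.8% and 27.3% of all genes tested. The LXR receptor genes NR1H3 and NR1H2, named after their values were seen, stood at ratios of 0.825 (0.706 to 0.961) and 0.876 (0.830 to 0.925). LPCAT3, a phospholipid-remodelling enzyme and known LXR target, stood at a log2 ratio of 0.34, the sterol sulfotransferase SULT2B1 at 0.33, and the transporter ABCA5 at -0.30 but at 0.20 in the table with assembled transcripts. Of 10 genes that process SREBP, sense sterols or degrade the pathway's proteins, 2 were higher (20%) and 4 lower (40%). PAQR3, a Golgi protein that binds SCAP, stood at 0.29 and ERLIN1 of the endoplasmic reticulum at 0.21, and RNF145, a ubiquitin ligase, at 0.26 with an interval that held a ratio of 1.

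**Figure D4:**
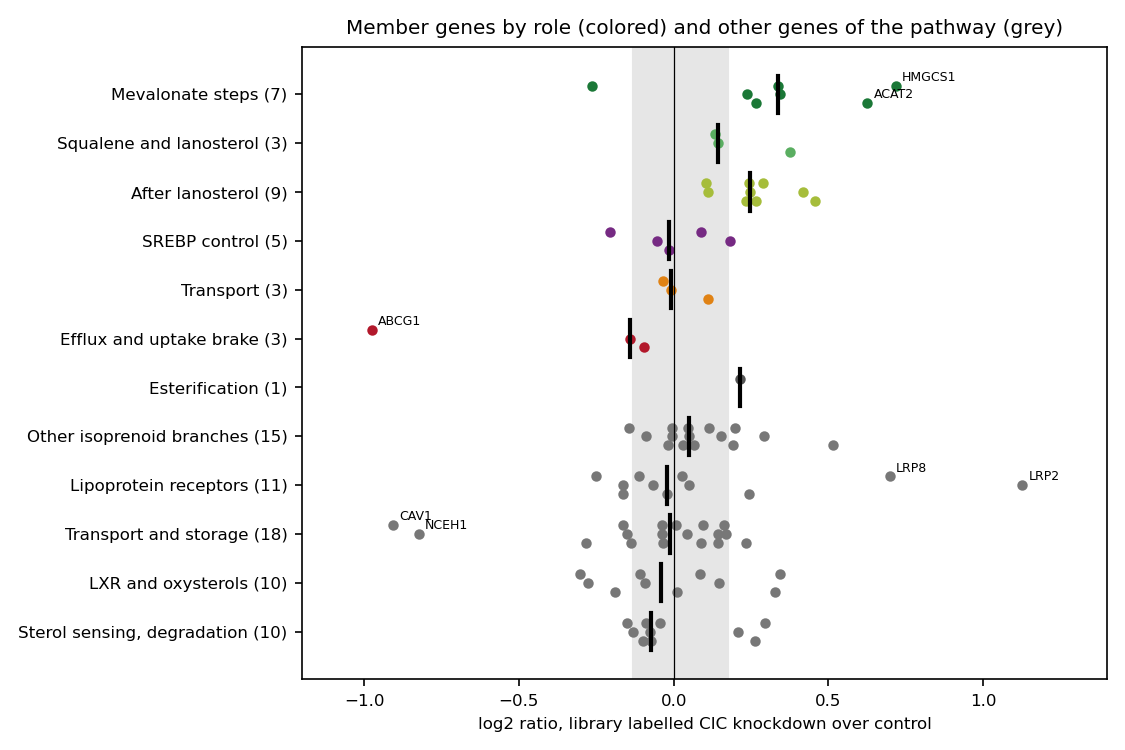
Log2 ratio of the library labelled CIC knockdown over control (horizontal axis) for the 31 genes by role (colored) and for other genes of sterol and isoprenoid metabolism with at least 100 counts (grey), 1 point per gene, with the number of genes in parentheses. Black bars are medians and the grey band holds the central 50% of all genes tested; the mevalonate (0.34) and post-lanosterol (0.25) medians lie right of the band and the medians of the 5 grey lists lie inside it.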

How the data were processed

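The 2 libraries of T47D secondary mammospheres (1 per group) were compared. Per the submitters' processing notes, Trimmomatic, HISAT2, StringTie and the builds hg38 and GRCh38 were used; versions are not given in the sources used here. Per the file headers, the authors deposited read counts, FPKM and TPM values for genes and transcripts. The deposited counts were treated as estimated counts, since StringTie divides coverage among transcripts; they are whole numbers and were not rounded further. Whether reads or fragments were counted is not stated. 0 columns of per-sample values lacked a sample.

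Library sizes were scaled by TMM (edgeR 4.0.16, R 4.3.3; factors 1.00 for the library labelled CIC knockdown and 0.995 for control). Log2 ratios used a prior count of 2; intervals and floors (3 counts) cover counting error only, as PCR copies are not independent molecules. Genes entered with at least 100 counts in 1 library. The interval step was checked on counts simulated with counting error alone. That check does not cover spread between cultures or the division of counts among transcripts. Alternatives were DESeq2 1.42.0 size factors, library totals, totals of genes with an NM_ transcript, TPM and FPKM (pseudocount 0.1), the table with assembled transcripts, halved counts, a prior count of 0.5 and other count minimums. With 1 library per group there is no test and no p-value.

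The members and lists were chosen with earlier results of these data known. All 31 members are named, beside CIC, ETV4 and ETV5 and up to 3 genes with the largest absolute log2 ratio of each further list. Any other gene is named as chosen after its values were seen, marker genes included. Transcript starts within 200 bases of one another were joined. The strand of each gene was taken from the GENCODE annotation of GRCh38. The list of assembled transcripts outside annotated genes was not used.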

Additional observations from a re-analysis of the deposited data

How the results depend on the processing

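Of 10 alternatives, 8 could move the ratio of a single gene and 2 only filter genes by count. Of 248 values under those 8, 233 lay within the gene's counting interval. MYLIP was the 1 gene called higher or lower that turned direction: with assembled transcripts added, its log2 ratio was 0.061, and the cause was not tested. Among genes whose interval held 1, STARD4 changed sign in TPM (0.16), in FPKM (0.14), with library totals and with assembled transcripts, NPC2 in TPM (0.023) and FPKM, and ABCA1 in TPM (0.012). The count of 22 genes higher by interval was 23 with assembled transcripts added and 20 with halved counts, where SCAP and NPC1 held 1, and the count of 4 lower genes was 3 with a minimum of 1000 counts, which leaves out PMVK. The median log2 ratio of 0.18 was 0.22 in TPM, 0.23 in the table with assembled transcripts and 0.21 over the 29 genes with at least 1000 counts, which leave out PMVK and STARD4. The median over all genes tested was 0.02 with TMM and ranged up to 0.057 in TPM. Genes higher by at least 25% numbered 6 in TPM and FPKM, where MVK fell short, and 8 in the table with assembled transcripts. TPM and FPKM gave no count by interval. No paired analysis was possible because each group has 1 sample. Variation between cultures was not measured. The higher calls of SCAP and NPC1 did not hold with halved counts.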

Other observations

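Start-site counts differed within IDI1, MVK and SCAP, and counts of assembled splice variants differed within MYLIP. These genes were chosen for mention here after their values were seen. IDI1 had 74.2% of its counts at the start at chromosome 10, 1049366, in the library labelled CIC knockdown and 73.8% in the control library, with a ratio of 1.19 (1.16 to 1.21) there. Its start at 1048886 had 2498 counts in the library labelled CIC knockdown and 412 in the control library, a ratio of 4.12 (3.72 to 4.60), while the starts at 1056313 to 1056396 stood at 0.780 (0.744 to 0.817). For MVK, the start at chromosome 12, 109574031, had 1112 counts in the library labelled CIC knockdown and 209 in the control library, whereas the starts at 109573461 to 109573498 had 641 counts in the library labelled CIC knockdown and 656 in the control library. SCAP had 383 counts at its start at chromosome 3, 47475597, in the library labelled CIC knockdown and 106 in the control library, and its main starts, at 47475926 to 47476113, stood at 0.939 (0.885 to 0.996). For MYLIP, the 2 assembled splice variants went opposite ways, one with 1097 counts in the library labelled CIC knockdown and 55 in the control library, and the other with 837 counts in the library labelled CIC knockdown and 1400 in the control library.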
